A study of Homo sapiens with 15 samples.

Results

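DNA replication and the entry into it at the G1/S boundary were described through 41 genes in C42B cells, a human prostate cancer line, after 6 h of treatment. The genes were taken as a list of replication and G1/S genes matched to the array's annotation by symbol, a rule that uses no measured value. All 41 were measured, each by 1 probe set, among 17687 genes in all. They fall into 8 roles, from the licensing of origins to the checkpoint that guards forks.

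The series compared the androgen receptor antagonist enzalutamide, alone or with an inhibitor of sphingosine kinase. PF-543 inhibits sphingosine kinase 1 and ABC294640, also called opaganib, inhibits sphingosine kinase 2. Cells seeded at 140000 per well in 2 ml of RPMI with 10% fetal bovine serum grew for 3 days before drug or vehicle was added for 6 h, and whole-transcript arrays were hybridised with targets made from 100 ng of RNA. Of the 15 arrays, 3 carried RNA from cells given 0.125% DMSO, 2 from cells given 10 µM enzalutamide, 3 from cells given 15 µM PF-543, and 1 from cells given 15 µM ABC294640. A further 3 carried RNA from 10 µM enzalutamide with 15 µM PF-543, and 3 from 10 µM enzalutamide with 15 µM ABC294640. The labels record no DMSO percentage for the treated wells. Nothing in them ties replicates to separate cultures, and a p-value here therefore reflects the spread among these arrays, possibly a technical one. Precision is limited by how few arrays there were, and the test of the lone ABC294640 array borrowed the spread of the other groups.

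In G1, the origin recognition complex, CDC6 and CDT1 load the MCM2-7 ring onto origins. Cyclin D and cyclin E kinases then inactivate the retinoblastoma protein, which frees E2F factors to induce cyclin E, CDC6, the MCM genes, PCNA and the enzymes of deoxynucleotide supply. CDC45 and GINS switch the loaded ring on as a helicase, primase and polymerases copy the strands, PCNA tethers the polymerases, and chromatin assembly factor 1 puts nucleosomes behind the fork. In androgen-dependent prostate cancer cells, blocking the androgen receptor is known to slow the passage from G1 into S phase.

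The cells carried the luminal prostate markers their label calls for, with a mean log2 level over the 15 arrays of 15.90 for KLK3, 13.10 for KLK2 and 14.47 for FOXA1. Endothelial PECAM1, neuroendocrine CHGA and basal KRT5 lay at 3.79, 3.71 and 4.03, and the highest of the 11 markers of other cell types were the mesenchymal genes COL1A2 at 9.15 and VIM at 8.32. TMPRSS2, an androgen-induced protease gene, fell with enzalutamide against DMSO by 1.06 on the log2 scale (SE 0.11, limma adjusted p = 0.000604), and it also fell against the matched inhibitor groups, with no DMSO array in the comparison, by 0.98 (SE 0.08, limma adjusted p = 4.98e-05). Of the 8 luminal markers measured, limma called 1 fall and 1 rise with enzalutamide against DMSO, the rise being HOXB13 by 0.75 (adjusted p = 0.00578), and 3 falls (TMPRSS2, KLK3 and KLK2) and 1 rise (HOXB13) with each combination against DMSO. Of all genes, limma called 0.311% with enzalutamide, 2.02% with enzalutamide plus PF-543 and 0.701% with enzalutamide plus ABC294640. With 1 array left out, the HOXB13 call held in 3 of 5 cases for enzalutamide and 4 of 6 for each combination, that of KLK3 in 6 of 6 with PF-543 and 4 of 6 with ABC294640, and that of KLK2 in 0 of 6 and 1 of 6. The DMSO arrays stood apart from the treated ones over all genes. Their mean correlation with treated arrays was 0.9949 over 36 pairs, below the 0.9959 between treated arrays of different groups over 56 pairs. The part of this difference in the comparisons against DMSO was not tested.

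E2F factors bind promoters at a short G- and C-rich site, and several of the promoters are shown because 15 of the 36 genes with a RefSeq promoter window held the letters of such a site. The 4 motifs searched on both strands of the 250 bases before the start were TTTCCCGC, TTTGGCGC, TTTCGCGC and TTTGCCGC. A match stood in 41.7% of the 36 genes, against 4.55% of 14250 array genes with a window. The list includes genes that E2F factors are known to induce, so this share describes the list and says nothing about the treatments. The genes with a match were CDC25A, CDT1, DTL, E2F1, E2F2, GINS2, MCM3, MCM6, MCM7, PCNA, POLA1, POLA2, RFC3, TYMS and UHRF1, and in MCM6 the matches overlap. The stretches below are the 80 bases just before the start in the RefSeq annotation of GRCh38.p14, 5′ to 3′ along the minus strand on which these genes lie, with the matches in capitals. They span chr20:5126623-5126702 for PCNA, chr3:48188418-48188497 for CDC25A and chr20:33686386-33686465 for E2F1. PCNA and CDC25A stood apart from DMSO on every treated array, in opposite directions, and E2F1 is the factor itself.
PCNA: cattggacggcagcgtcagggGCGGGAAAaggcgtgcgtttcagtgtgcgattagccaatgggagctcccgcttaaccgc
CDC25A: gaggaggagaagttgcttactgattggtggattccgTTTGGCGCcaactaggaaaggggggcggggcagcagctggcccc
E2F1: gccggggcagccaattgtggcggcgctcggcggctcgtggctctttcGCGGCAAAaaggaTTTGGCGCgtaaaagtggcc
The PCNA stretch holds TTTCCCGC on the opposite strand, CDC25A holds TTTGGCGC, and E2F1 holds TTTGCCGC on the opposite strand followed by TTTGGCGC. A match describes letters and does not show that a factor binds there. With enzalutamide plus PF-543 against DMSO, the median log2 difference was -0.12 for the 15 genes with a match and -0.17 for the 21 without. A link between the matches and the differences was not tested.

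None of the 41 genes rose or fell past the test in any comparison. The test was limma on the log2 values, with Benjamini-Hochberg adjustment over all 17687 genes and a threshold of 0.05. With enzalutamide against DMSO it called 0 of 41, where 0.311% of all genes were called, and 8 of the 41 had an unadjusted p under 0.05, as did 12.9% of all genes. With PF-543 it called 0 of 41 and 0.565% of all genes, and 5 of the 41 were under the unadjusted threshold, beside 15.5% of all genes. With ABC294640 it called 0 of 41 and 0% of all genes, and 3 of the 41 were under the unadjusted threshold, beside 9.57% of all genes. With enzalutamide plus ABC294640 it called 0 of 41 and 0.701% of all genes, and 8 of the 41 were under the unadjusted threshold, beside 16% of all genes. Enzalutamide plus PF-543 had the most. limma called 0 of 41 there and 2.02% of all genes, and 13 of the 41 (31.7%) were under the unadjusted threshold, beside 18.7% of all genes. The smallest adjusted p of any of the 41 there was 0.0759, for GINS4. A limma F test for any difference among the 6 groups called 0 of 41 and 0.78% of all genes. CCNE1, CCNE2, PCNA, GINS4 and EXO1 had an unadjusted p under 0.05 in it, 5 of 41 (12.2%), beside 14.8% of all genes.

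The differences of the 41 genes were set against fixed fold changes by their 95% intervals, each taken singly and not adjusted for their number. The 12 comparisons used leave out the differences between effects of enzalutamide with ABC294640 that are given below. For each of the 41 genes in each of the 12 comparisons, the 95% interval of the difference lay inside a 2-fold change in either direction, as did 86.0% to 99.5% of all genes over these comparisons. Inside 1.5-fold lay the intervals of 38 genes for enzalutamide against DMSO, 40 for PF-543, 38 for enzalutamide plus PF-543 and 39 for enzalutamide plus ABC294640, and of 32 for the single ABC294640 array. The shares of all genes inside 1.5-fold were 63.9%, 71.7%, 69.4%, 71.8% and 44.8% in the same order. The within-group SD of the 41 genes had a median of 0.096 on the log2 scale, and that of all genes 0.18. All 41 were brighter than the array median on every array, as were 8719 of 17687 genes. The values over all genes were not matched for level. The group means of a gene spanned 0.277 at the median of the 41 and 0.497 at most, for UHRF1. The median span of all genes was 0.357. The RNA came from whole wells, so fewer cells in S phase and less RNA per cell cannot be told apart.

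**Figure D1:**
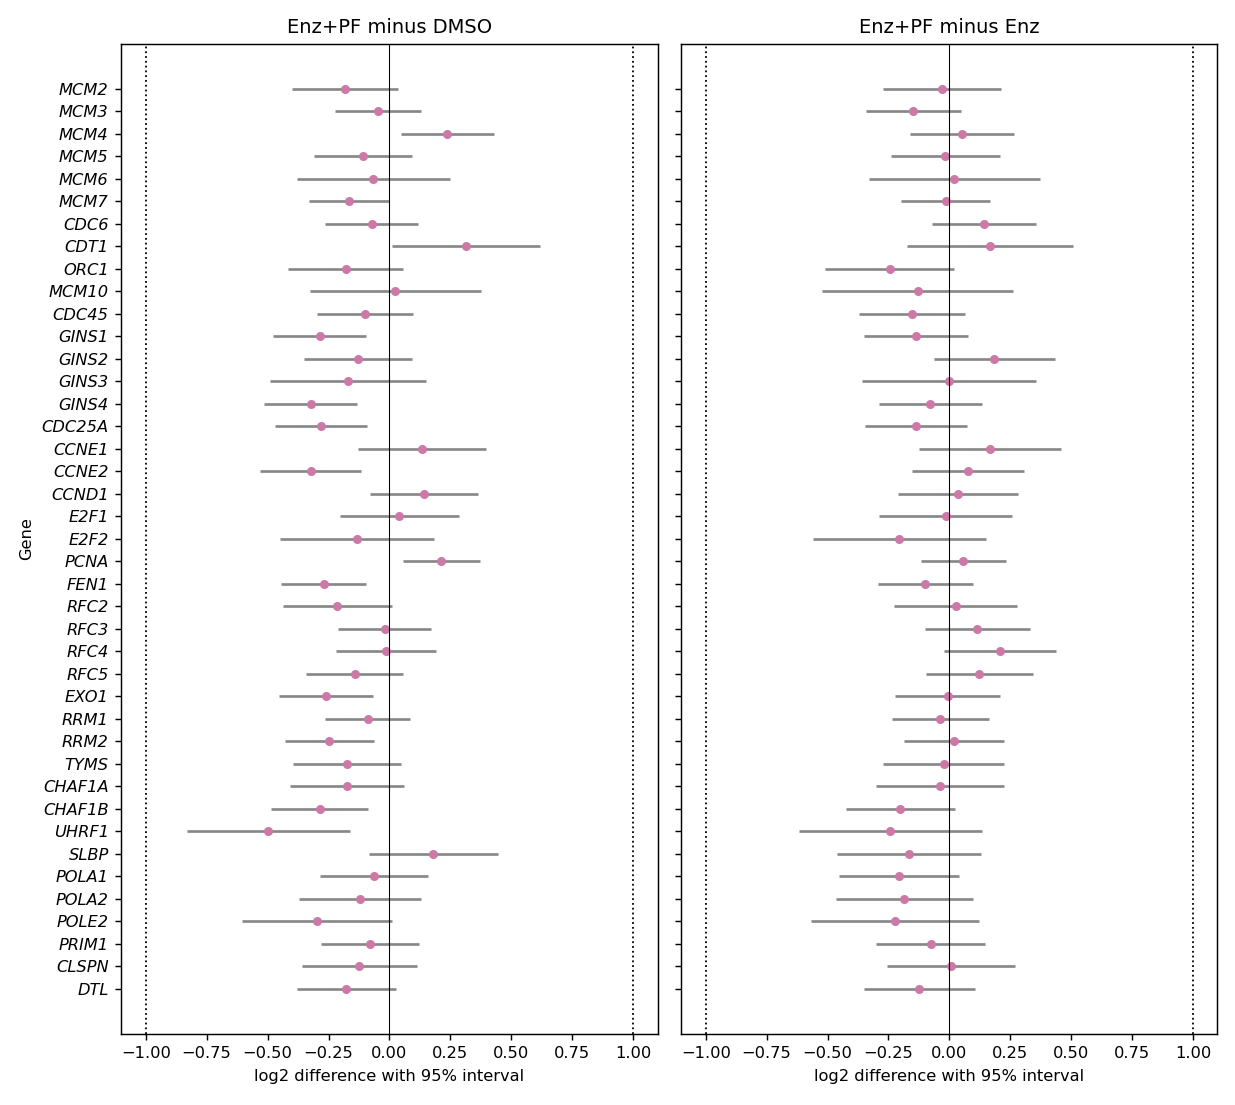
The log2 difference of each of the 41 genes with its 95% interval, for enzalutamide plus PF-543 against DMSO on the left and against enzalutamide alone on the right, with dotted lines at a 2-fold change. All 82 intervals lie between the dotted lines, and the lowest bound on the left is that of UHRF1 at -0.83.

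More of the 41 genes lay below DMSO than above it in 4 of the 5 treated groups. With enzalutamide, 28 of 41 lay below, with a median difference of -0.09 on the log2 scale, where the median of all genes was -0.01. With PF-543, 26 lay below, with a median of -0.05. With enzalutamide plus PF-543, 33 lay below (80.5%, against 51.7% of all genes), with a median of -0.13. With enzalutamide plus ABC294640, 28 lay below, with a median of -0.07, and on the single ABC294640 array 19 lay below and 22 above, with a median of 0.02. Of all genes, 52.4% lay below DMSO with enzalutamide, 51.9% with PF-543, 51.4% with enzalutamide plus ABC294640 and 52.0% on the ABC294640 array. These comparisons share the same 3 DMSO arrays. Genes whose arrays did not overlap with DMSO were counted in each group. With enzalutamide, 17 of the 41 (41.5%) lay wholly below DMSO and 5 wholly above, beside 14.6% and 13.5% of all genes. With enzalutamide plus PF-543, 16 (39.0%) lay wholly below and 2 above, beside 11.6% and 12.1% of all genes. With PF-543, 8 lay wholly below and 2 above, beside 10% and 10.2% of all genes. With enzalutamide plus ABC294640, 8 lay wholly below and 4 above, beside 9.75% and 9.48% of all genes. The single ABC294640 array, which needs only 1 value past the DMSO range, had 13 below and 15 above, beside 28.9% and 26.1% of all genes.

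**Figure D2:**
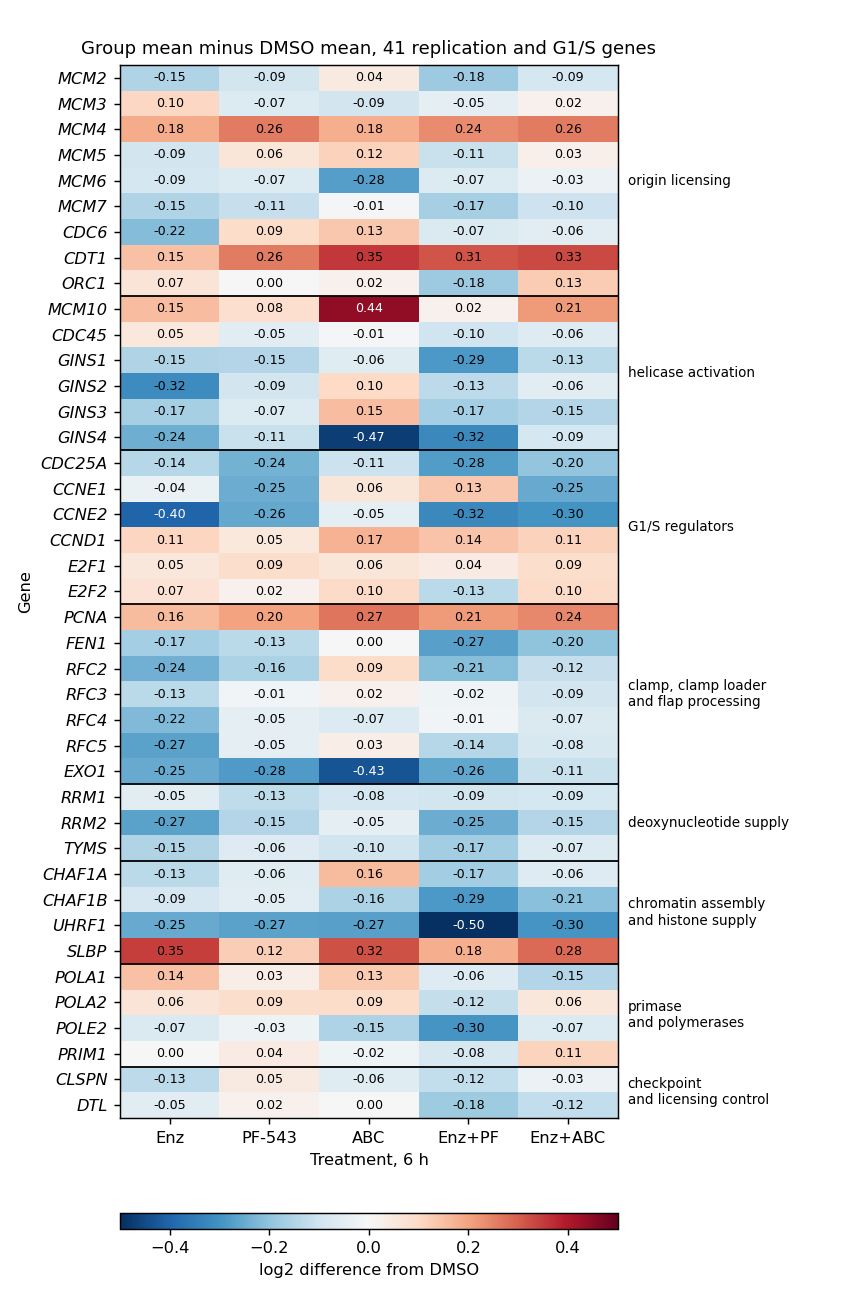
Colour and number give the log2 difference of each group mean from the DMSO mean for the 41 genes, ordered by role, with blue lower and red higher (Enz is enzalutamide, PF is PF-543 and ABC is ABC294640). MCM4, MCM10, CDT1, CCND1, E2F1, PCNA and SLBP are above 0 in all 5 columns. MCM6, MCM7, GINS1, GINS4, CDC25A, CCNE2, RFC4, EXO1, RRM1, RRM2, TYMS, CHAF1B, UHRF1 and POLE2 are below 0 in all 5. No cell passed the test.

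Among the 9 licensing genes, only MCM4 lay above DMSO on every treated array. MCM4, a subunit of the helicase ring, measured 13.18, 13.14 and 13.37 with DMSO, 13.43 and 13.40 with enzalutamide, 13.44, 13.59 and 13.44 with PF-543, 13.41 with ABC294640, 13.51, 13.45 and 13.44 with enzalutamide plus PF-543, and 13.42, 13.52 and 13.53 with enzalutamide plus ABC294640. All 12 treated arrays lay above all 3 DMSO arrays, as did 2.03% of all genes, and PCNA was the only other of the 41 to do so. The difference was 0.26 with PF-543 (SE 0.09, limma adjusted p = 0.188) and 0.24 with enzalutamide plus PF-543 (SE 0.09, limma adjusted p = 0.170). After quantile or cyclic loess normalization the MCM4 arrays overlapped with DMSO.

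None of the other ring subunits lay above DMSO on every treated array. MCM2 measured 11.77, 11.66 and 11.69 with DMSO, 11.37 and 11.74 with enzalutamide, 11.59, 11.70 and 11.56 with PF-543, 11.75 with ABC294640, 11.62, 11.48 and 11.47 with enzalutamide plus PF-543, and 11.62, 11.64 and 11.60 with enzalutamide plus ABC294640. The arrays of both combinations lay below the 3 DMSO arrays, by 0.18 in the mean with PF-543 and 0.09 with ABC294640, and those of enzalutamide and PF-543 alone overlapped with DMSO. MCM7 measured 14.93, 14.88 and 14.91 with DMSO, 14.75 and 14.76 with enzalutamide, 14.82, 14.72 and 14.84 with PF-543, 14.90 with ABC294640, 14.69, 14.79 and 14.74 with enzalutamide plus PF-543, and 14.83, 14.81 and 14.77 with enzalutamide plus ABC294640. All treated arrays but that with ABC294640 lay below all DMSO arrays, by 0.17 in the mean with enzalutamide plus PF-543 (limma adjusted p = 0.258) and 0.15 with enzalutamide. MCM6 measured 10.75, 10.54 and 10.50 with DMSO, 10.43 and 10.59 with enzalutamide, 10.62, 10.35 and 10.62 with PF-543, 10.32 with ABC294640, 10.67, 10.16 and 10.76 with enzalutamide plus PF-543, and 10.63, 10.52 and 10.55 with enzalutamide plus ABC294640. The lowest of these was replicate 2 of enzalutamide plus PF-543, and every replicated group overlapped with DMSO. MCM3 and MCM5 stayed between -0.11 and 0.12 of DMSO in all 5 groups.

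Of the loaders of the ring, CDT1 had a mean above DMSO in all 5 treated groups and CDC6 in 2. CDC6 measured 13.42, 13.44 and 13.51 with DMSO, 13.32 and 13.16 with enzalutamide, 13.53, 13.51 and 13.60 with PF-543, 13.59 with ABC294640, 13.39, 13.41 and 13.35 with enzalutamide plus PF-543, and 13.26, 13.51 and 13.43 with enzalutamide plus ABC294640. The enzalutamide arrays and those of enzalutamide plus PF-543 lay below all 3 DMSO arrays, by 0.22 (limma adjusted p = 0.381) and 0.07 in the mean, and the 3 PF-543 arrays lay level with or above DMSO. CDT1, which delivers the ring with CDC6, measured 9.75, 9.41 and 9.51 with DMSO, 9.64 and 9.77 with enzalutamide, 9.88, 9.85 and 9.72 with PF-543, 9.91 with ABC294640, 10.03, 9.51 and 10.07 with enzalutamide plus PF-543, and 9.96, 9.83 and 9.87 with enzalutamide plus ABC294640. Its mean was above DMSO by 0.31 with enzalutamide plus PF-543 (SE 0.14, limma adjusted p = 0.255) and 0.33 with enzalutamide plus ABC294640 (SE 0.14, limma adjusted p = 0.276), and the arrays overlapped with DMSO in the first of these and not in the second. ORC1, the regulated subunit of the origin recognition complex, measured 10.70, 10.68 and 10.72 with DMSO, 10.86 and 10.67 with enzalutamide, 10.55, 10.78 and 10.76 with PF-543, 10.72 with ABC294640, 10.69, 10.40 and 10.47 with enzalutamide plus PF-543, and 10.96, 10.68 and 10.84 with enzalutamide plus ABC294640. With enzalutamide plus PF-543 its mean lay 0.31 below that with enzalutamide plus ABC294640 (SE 0.11, limma adjusted p = 0.543), and the arrays of these groups overlapped.

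Among the 6 genes of helicase activation, only GINS1 lay below DMSO on every treated array. GINS1 measured 13.53, 13.51 and 13.49 with DMSO, 13.29 and 13.43 with enzalutamide, 13.36, 13.45 and 13.28 with PF-543, 13.45 with ABC294640, 13.29, 13.26 and 13.12 with enzalutamide plus PF-543, and 13.46, 13.39 and 13.28 with enzalutamide plus ABC294640. All 12 treated arrays lay below all 3 DMSO arrays, as did 1.42% of all genes, and CDC25A was the only other of the 41 to do so. The difference was 0.29 below DMSO with enzalutamide plus PF-543 (SE 0.09, limma adjusted p = 0.114) and 0.06 below on the ABC294640 array. GINS4 measured 10.07, 10.16 and 10.01 with DMSO, 9.78 and 9.89 with enzalutamide, 10.04, 9.82 and 10.05 with PF-543, 9.61 with ABC294640, 9.76, 9.74 and 9.77 with enzalutamide plus PF-543, and 9.98, 10.04 and 9.96 with enzalutamide plus ABC294640. The 3 arrays with enzalutamide plus PF-543 lay between 9.74 and 9.77, below all DMSO arrays, by 0.32 in the mean (SE 0.09, limma adjusted p = 0.0759, or 0.0459 with the dimmest 25% of genes left out). The enzalutamide arrays also lay below all DMSO arrays, while those with enzalutamide plus ABC294640 overlapped with DMSO. The lowest value was the single ABC294640 array, 0.47 below DMSO (SE 0.12, limma adjusted p = 0.278).

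GINS2 measured 10.93, 10.81 and 10.93 with DMSO, 10.62 and 10.53 with enzalutamide, 10.70, 10.72 and 10.98 with PF-543, 10.99 with ABC294640, 10.84, 10.71 and 10.73 with enzalutamide plus PF-543, and 10.92, 10.90 and 10.68 with enzalutamide plus ABC294640. The 2 enzalutamide arrays were the lowest and lay below those of both combinations. Of all genes, 12.8% lay higher without overlap when PF-543 was added to enzalutamide and 10.5% when ABC294640 was. GINS3 measured 10.73, 10.71 and 10.65 with DMSO, 10.63 and 10.43 with enzalutamide, 10.82, 10.70 and 10.36 with PF-543, 10.85 with ABC294640, 10.67, 10.56 and 10.35 with enzalutamide plus PF-543, and 10.81, 10.55 and 10.29 with enzalutamide plus ABC294640. Both enzalutamide arrays lay below the DMSO arrays, and the other replicated groups overlapped with them. CDC45, the helicase cofactor, lay between -0.10 and 0.05 of DMSO. MCM10, which helps load CDC45 and primase, measured 9.23, 8.51 and 9.13 with DMSO, 9.22 and 9.0 with enzalutamide, 9.24, 8.93 and 8.95 with PF-543, 9.40 with ABC294640, 9.06, 8.87 and 9.01 with enzalutamide plus PF-543, and 9.20, 9.11 and 9.20 with enzalutamide plus ABC294640. The lowest of these was a DMSO array, and the single ABC294640 array, 0.44 above the DMSO mean, was the highest.

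Of the 6 regulators of G1/S, CDC25A and CCNE2 were lower with treatment and E2F1 was 0.04 to 0.09 above DMSO. CDC25A, the phosphatase that activates the cyclin E kinase, measured 9.42, 9.46 and 9.46 with DMSO, 9.30 and 9.31 with enzalutamide, 9.23, 9.28 and 9.12 with PF-543, 9.34 with ABC294640, 9.19, 9.26 and 9.05 with enzalutamide plus PF-543, and 9.34, 9.17 and 9.24 with enzalutamide plus ABC294640. No treated array reached the lowest DMSO value, and under quantile and cyclic loess normalization this held for CDC25A, GINS1 and also RRM2. The difference was 0.28 below DMSO with enzalutamide plus PF-543 (SE 0.09, limma adjusted p = 0.114), 0.24 below with PF-543 (SE 0.09, limma adjusted p = 0.221) and 0.14 below with enzalutamide (SE 0.10, limma adjusted p = 0.580).

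Cyclin E, which activates CDK2 at the entry to S phase, is encoded by CCNE1 and CCNE2. CCNE2, cyclin E2, measured 10.91, 11.21 and 11.15 with DMSO, 10.65 and 10.73 with enzalutamide, 10.81, 10.87 and 10.82 with PF-543, 11.04 with ABC294640, 10.81, 10.78 and 10.71 with enzalutamide plus PF-543, and 10.89, 10.80 and 10.68 with enzalutamide plus ABC294640. Every array of enzalutamide, PF-543 and both combinations lay below all DMSO arrays, and the ABC294640 array lay among them. The differences from DMSO were -0.40 with enzalutamide (SE 0.11, limma adjusted p = 0.156), -0.26 with PF-543 (SE 0.10, limma adjusted p = 0.228), -0.32 with enzalutamide plus PF-543 (SE 0.10, limma adjusted p = 0.0990) and -0.30 with enzalutamide plus ABC294640 (SE 0.10, limma adjusted p = 0.158). CCNE1, cyclin E1, measured 9.22, 8.88 and 9.23 with DMSO, 9.14 and 9.01 with enzalutamide, 8.97, 8.72 and 8.90 with PF-543, 9.17 with ABC294640, 9.32, 9.07 and 9.34 with enzalutamide plus PF-543, and 8.75, 8.87 and 8.95 with enzalutamide plus ABC294640. All groups overlapped with DMSO, and among the treated groups the 3 arrays with enzalutamide plus PF-543 lay above the 3 with PF-543 alone and the 3 with enzalutamide plus ABC294640. Of all genes, 7.6% and 6.43% lay higher without overlap in these comparisons.

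E2F1, which drives the transcription of many of these genes, measured 10.42, 10.39 and 10.42 with DMSO, 10.29 and 10.64 with enzalutamide, 10.48, 10.41 and 10.60 with PF-543, 10.47 with ABC294640, 10.63, 10.44 and 10.28 with enzalutamide plus PF-543, and 10.48, 10.44 and 10.57 with enzalutamide plus ABC294640. Each of its differences from DMSO was smaller than its SE of 0.11 to 0.16. E2F2, the dimmest of the 41 with a mean of 7.26, measured 7.31, 7.12 and 7.30 with DMSO, 7.21 and 7.42 with enzalutamide, 7.25, 7.26 and 7.29 with PF-543, 7.34 with ABC294640, 7.25, 6.84 and 7.24 with enzalutamide plus PF-543, and 7.29, 7.65 and 7.08 with enzalutamide plus ABC294640. Its spread within the combinations was wider than its differences between groups. CCND1, cyclin D1, measured 13.43, 13.32 and 13.20 with DMSO, 13.35 and 13.50 with enzalutamide, 13.29, 13.46 and 13.36 with PF-543, 13.49 with ABC294640, 13.55, 13.50 and 13.33 with enzalutamide plus PF-543, and 13.49, 13.29 and 13.51 with enzalutamide plus ABC294640. Its differences from DMSO ran from 0.05 to 0.17, and every replicated group overlapped with DMSO.

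**Figure D3:**
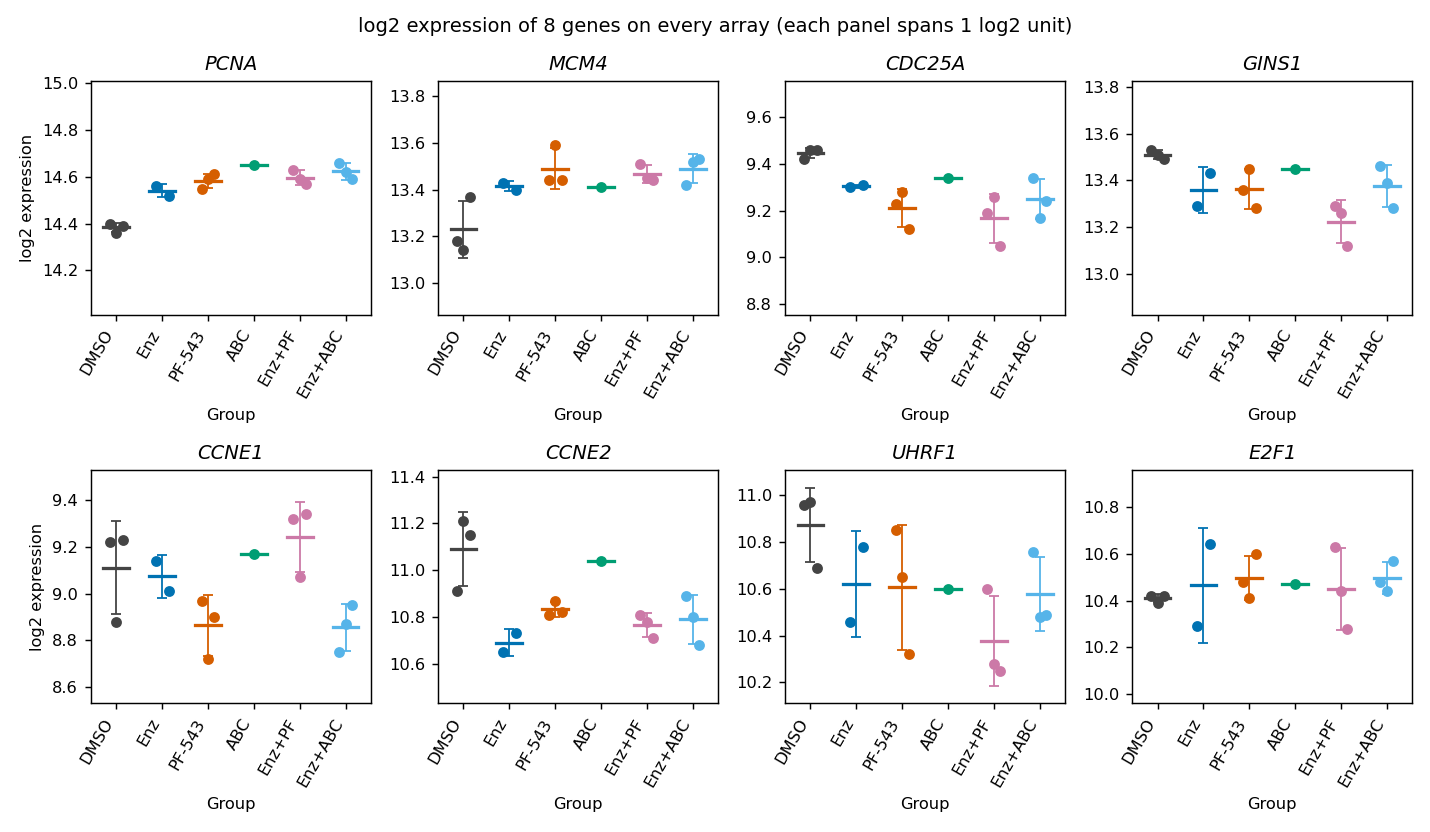
log2 expression of 8 of the genes on every array, with points for arrays, bars for group means and whiskers for the SD (none for the single ABC294640 array), each panel spanning 1 log2 unit. In the PCNA and MCM4 panels every treated point is above the DMSO points, in the CDC25A and GINS1 panels every treated point is below them, and the E2F1 points of DMSO lie inside the range of the others.

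PCNA was the other gene above DMSO on every treated array. PCNA, the sliding clamp that holds polymerases on DNA, measured 14.40, 14.36 and 14.39 with DMSO, 14.56 and 14.52 with enzalutamide, 14.55, 14.59 and 14.61 with PF-543, 14.65 with ABC294640, 14.63, 14.59 and 14.57 with enzalutamide plus PF-543, and 14.66, 14.62 and 14.59 with enzalutamide plus ABC294640. The highest DMSO array was at 14.40 and the lowest treated array at 14.52. The difference was 0.16 with enzalutamide (SE 0.08, limma adjusted p = 0.445), 0.20 with PF-543 (SE 0.07, limma adjusted p = 0.216), 0.21 with enzalutamide plus PF-543 (SE 0.07, limma adjusted p = 0.137) and 0.24 with enzalutamide plus ABC294640 (SE 0.07, limma adjusted p = 0.136). The separation of its arrays held under quantile, cyclic loess and centred values.

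FEN1 and EXO1, which process DNA ends at the fork, lay below DMSO in most groups. FEN1, which trims the flaps of Okazaki fragments, measured 13.77, 13.62 and 13.64 with DMSO, 13.44 and 13.57 with enzalutamide, 13.54, 13.57 and 13.52 with PF-543, 13.68 with ABC294640, 13.41, 13.45 and 13.36 with enzalutamide plus PF-543, and 13.47, 13.52 and 13.44 with enzalutamide plus ABC294640. All arrays but that with ABC294640 lay below the DMSO arrays, by 0.27 in the mean with enzalutamide plus PF-543 (SE 0.08, limma adjusted p = 0.0997). EXO1, an exonuclease of mismatch repair and end resection, measured 12.11, 12 and 12.17 with DMSO, 11.82 and 11.86 with enzalutamide, 11.84, 11.76 and 11.83 with PF-543, 11.66 with ABC294640, 11.73, 11.90 and 11.87 with enzalutamide plus PF-543, and 12.04, 11.86 and 12.05 with enzalutamide plus ABC294640. Enzalutamide, PF-543 and their combination lay below all DMSO arrays by 0.25 to 0.28, the combination with limma adjusted p = 0.139, while enzalutamide plus ABC294640 overlapped with DMSO.

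The clamp loader subunits were lowest with enzalutamide alone. RFC5 measured 12.48, 12.54 and 12.53 with DMSO, 12.26 and 12.24 with enzalutamide, 12.49, 12.41 and 12.50 with PF-543, 12.55 with ABC294640, 12.41, 12.41 and 12.30 with enzalutamide plus PF-543, and 12.55, 12.51 and 12.25 with enzalutamide plus ABC294640. The arrays of enzalutamide and of enzalutamide plus PF-543 lay below all DMSO arrays, 0.27 and 0.14 lower in the mean. RFC4 measured 14.75, 14.83 and 14.79 with DMSO, 14.66 and 14.48 with enzalutamide, 14.76, 14.72 and 14.75 with PF-543, 14.72 with ABC294640, 14.76, 14.76 and 14.81 with enzalutamide plus PF-543, and 14.73, 14.88 and 14.54 with enzalutamide plus ABC294640. Adding PF-543 to enzalutamide went with a value 0.21 higher (SE 0.11, limma adjusted p = 0.685). The arrays lay higher without overlap, as did those of 12.8% of all genes. RFC3 measured 13.90, 14.15 and 13.95 with DMSO, 13.86 and 13.87 with enzalutamide, 14.08, 13.94 and 13.94 with PF-543, 14.02 with ABC294640, 13.99, 13.99 and 13.96 with enzalutamide plus PF-543, and 13.98, 13.91 and 13.84 with enzalutamide plus ABC294640. Its differences from DMSO ran from -0.135 to 0.02, and those of RFC2 from -0.24 to 0.09.

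The 3 genes of deoxynucleotide supply all had a mean below that of DMSO in each treated group. RRM2, the S phase subunit of ribonucleotide reductase, measured 13.66, 13.68 and 13.69 with DMSO, 13.37 and 13.45 with enzalutamide, 13.58, 13.50 and 13.51 with PF-543, 13.63 with ABC294640, 13.48, 13.34 and 13.47 with enzalutamide plus PF-543, and 13.66, 13.45 and 13.48 with enzalutamide plus ABC294640. Enzalutamide and enzalutamide plus PF-543 lay 0.27 and 0.25 below DMSO (limma adjusted p = 0.255 and 0.142) and PF-543 0.15 below, all without overlap, and 1 array of enzalutamide plus ABC294640 reached the lowest DMSO value. RRM1, the large subunit and the brightest of the 41 with a mean of 14.93, measured 14.97, 15.10 and 14.94 with DMSO, 14.95 and 14.95 with enzalutamide, 14.89, 14.87 and 14.87 with PF-543, 14.92 with ABC294640, 14.99, 14.95 and 14.80 with enzalutamide plus PF-543, and 14.92, 14.91 and 14.92 with enzalutamide plus ABC294640. Its group means spanned 0.127. The group means of TYMS, thymidylate synthase, lay 0.06 to 0.17 below that of DMSO. Its highest array was at 13.51 with PF-543 and 13.50 with enzalutamide plus ABC294640, above the highest DMSO array at 13.46.

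Of the 4 genes of chromatin assembly and histone supply, UHRF1 and CHAF1B were lower and SLBP higher. UHRF1, which directs maintenance DNA methylation behind the fork, measured 10.96, 10.97 and 10.69 with DMSO, 10.46 and 10.78 with enzalutamide, 10.85, 10.65 and 10.32 with PF-543, 10.60 with ABC294640, 10.60, 10.28 and 10.25 with enzalutamide plus PF-543, and 10.76, 10.48 and 10.49 with enzalutamide plus ABC294640. With enzalutamide plus PF-543 its 3 arrays lay below all DMSO arrays by 0.50 in the mean (SE 0.16, limma adjusted p = 0.115, 95% interval -0.83 to -0.16), and the other replicated groups overlapped with DMSO. CHAF1B, a subunit of chromatin assembly factor 1, measured 12.28, 12.40 and 12.49 with DMSO, 12.33 and 12.28 with enzalutamide, 12.35, 12.34 and 12.32 with PF-543, 12.23 with ABC294640, 12.14, 12.18 and 11.99 with enzalutamide plus PF-543, and 12.19, 12.29 and 12.06 with enzalutamide plus ABC294640. It was lowest with enzalutamide plus PF-543, 0.29 below DMSO (SE 0.09, limma adjusted p = 0.122) and 0.23 below PF-543 alone (SE 0.09, limma adjusted p = 0.511), without overlap in either case. Of all genes, 11.6% and 6.99% lay lower without overlap in these comparisons. SLBP, which binds the stem-loop of histone mRNA, measured 12, 11.82 and 11.76 with DMSO, 12.07 and 12.34 with enzalutamide, 12.01, 11.98 and 11.96 with PF-543, 12.18 with ABC294640, 12.14, 12.02 and 11.96 with enzalutamide plus PF-543, and 11.88, 12.22 and 12.33 with enzalutamide plus ABC294640. Enzalutamide lay above all DMSO arrays by 0.345 (SE 0.14, limma adjusted p = 0.318), and both combinations overlapped with DMSO.

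In the 4 primase and polymerase genes, the differences from DMSO ran from -0.30 to 0.145. POLA1, the catalytic subunit of polymerase alpha, measured 10.17, 10.36 and 10.25 with DMSO, 10.40 and 10.41 with enzalutamide, 10.13, 10.49 and 10.26 with PF-543, 10.39 with ABC294640, 10.28, 10.16 and 10.15 with enzalutamide plus PF-543, and 10.03, 10.15 and 10.16 with enzalutamide plus ABC294640. Adding ABC294640 to enzalutamide went with a value 0.29 lower (SE 0.11, limma adjusted p = 0.672). The arrays lay lower without overlap, as did those of 10.2% of all genes. POLA2, its accessory subunit, measured 10.13, 9.69 and 10.09 with DMSO, 10.07 and 10.00 with enzalutamide, 10.12, 10.01 and 10.04 with PF-543, 10.06 with ABC294640, 9.89, 9.83 and 9.83 with enzalutamide plus PF-543, and 10.17, 10.00 and 9.91 with enzalutamide plus ABC294640. POLE2, a subunit of polymerase epsilon, measured 9.72, 9.86 and 9.80 with DMSO, 9.90 and 9.54 with enzalutamide, 9.85, 9.70 and 9.75 with PF-543, 9.64 with ABC294640, 9.39, 9.77 and 9.33 with enzalutamide plus PF-543, and 9.98, 9.59 and 9.60 with enzalutamide plus ABC294640. The 3 POLE2 values with enzalutamide plus PF-543 ran from 9.33 to 9.77 and overlapped with DMSO. PRIM1 lay between -0.08 and 0.11 of DMSO, CLSPN, the adaptor of the ATR checkpoint, between -0.13 and 0.05, and DTL, which targets CDT1 for destruction, between -0.18 and 0.02.

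Comparisons without DMSO arrays gave the effects of adding one agent to the other, and they too called 0 of the 41 in limma. Adding PF-543 to enzalutamide gave a median difference of -0.02. No gene of the 41 had an unadjusted p under 0.05 (0 of 41, beside 7.83% of all genes), and 0.0283% of all genes were called. Adding ABC294640 to enzalutamide gave a median of 0.06, with 29 of 41 above 0. Without overlap, 6 of the 41 lay higher and 5 lower, beside 10.5% and 10.2% of all genes. The unadjusted count was 2 of 41, beside 6.78% of all genes, and 0% of all genes were called.

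Adding enzalutamide to an inhibitor left more of the 41 below 0 than above it. The share of all genes below 0 is given only for the average over both inhibitors. With PF-543 present, 31 of 41 were below 0, with a median of -0.09. Without overlap, 7 of the 41 lay lower and 1 higher, beside 6.99% and 7.6% of all genes. The unadjusted count was 3 of 41 beside 8.27% of all genes, of which 0.311% were called. With ABC294640 present, 30 of 41 were below 0, with a median of -0.06, and the unadjusted count was 2 of 41 beside 6.95% of all genes, of which 0.0792% were called. Averaged over both inhibitors, 29 of 41 were below 0, where 47.8% of all genes were. CDC6, FEN1 and EXO1 had an unadjusted p under 0.05, 3 of 41 beside 7.9% of all genes, and 0.384% of all genes were called. A limma F test among the 5 treated groups called 0 of 41 and 0.351% of all genes, with CCNE1 and GINS4 (2 of 41) at an unadjusted p under 0.05 beside 9.48% of all genes.

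The 2 inhibitors, each at 15 µM with enzalutamide, were compared directly. Of the 41 genes, 36 lay lower with PF-543 than with ABC294640 (87.8%, against 49.0% of all genes), with a median difference of -0.07. limma called 0 of 41 and 0.0961% of all genes, with 3 of the 41 at an unadjusted p under 0.05 beside 7.21% of all genes. Of the 41 intervals, 40 lay inside 1.5-fold. The exception was CCNE1, 0.39 higher with PF-543 (SE 0.12, 95% interval 0.13 to 0.65, limma adjusted p = 0.494), with no overlap between the 3 and 3 arrays. GINS4 was 0.24 lower with PF-543 (SE 0.09, 95% interval -0.43 to -0.05, limma adjusted p = 0.577), also without overlap. In this comparison 1 of the 41 lay higher and 3 lower without overlap, beside 6.43% and 5.97% of all genes.

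The effects of enzalutamide in the presence of each inhibitor were also compared with each other. Its effect on CCNE1 in the presence of PF-543 was 0.38 (SE 0.12, limma adjusted p = 0.349) and in the presence of ABC294640 -0.31 (SE 0.17, limma adjusted p = 0.797). The difference between these effects was 0.69 (95% interval 0.24 to 1.15, limma adjusted p = 0.610). For GINS4 that difference was -0.60 (95% interval -0.93 to -0.27, limma adjusted p = 0.543). Both differences rest on the single ABC294640 array. Against enzalutamide without an inhibitor, its effect in the presence of PF-543 differed by 0.42 for CCNE1 (limma adjusted p = 0.604) and by 0.03 for GINS4 (limma adjusted p = 0.966). limma called 0 of 41 in each of the 3 such differences between effects, where 0% of all genes were called. The unadjusted count was 2 of 41 for PF-543 against no inhibitor (8.07% of all genes), 3 for ABC294640 against no inhibitor (8.25% of all genes) and 2 for PF-543 against ABC294640 (6.3% of all genes).

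The 41 genes as a group were summarised on each array by the median of their deviations from their own means over the 15 arrays. The DMSO arrays gave 0.04, 0.046 and 0.077, the enzalutamide arrays -0.047 and -0.022, and the PF-543 arrays 0.019, 0.003 and -0.013. The ABC294640 array gave 0.077, enzalutamide plus PF-543 gave -0.011, -0.025 and -0.129, and enzalutamide plus ABC294640 gave 0.068, 0.001 and -0.038. The lowest array of all was replicate 3 of enzalutamide plus PF-543, on which 34 of the 41 genes were below their own mean. Without that array the median difference of the combination from DMSO was -0.11, with 33 of 41 below 0, and the count lower than with enzalutamide plus ABC294640 changed from 36 to 31.

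**Figure D4:**
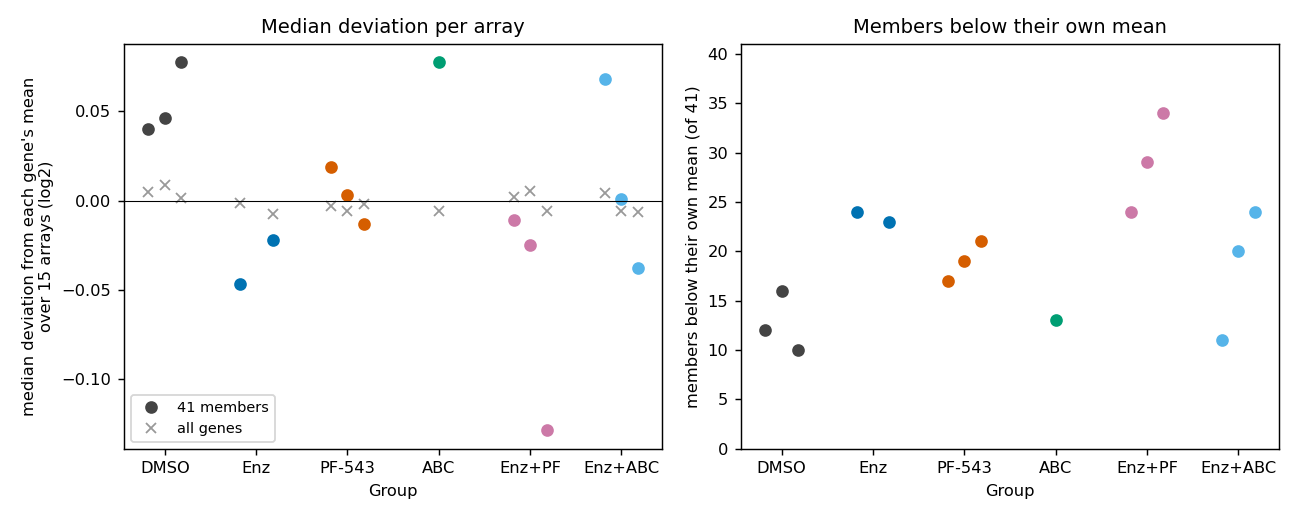
Left, the median over the 41 genes (circles) and over all genes (crosses) of the deviation from each gene's mean over the 15 arrays, in log2, for each array. Right, the number of the 41 genes below their own mean on each array. DMSO arrays are all above 0, and replicate 3 of enzalutamide plus PF-543 is the lowest at -0.129, with 34 genes below their mean.

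Of the alternative settings, 2 called any of the 41 genes. Leaving out the dimmest 25% of genes called GINS4, 1 of 41, with enzalutamide plus PF-543 against DMSO, where 4.11% of the genes kept were called. With limma's prior made robust and allowed to follow the mean level, 9 of 41 were called with enzalutamide plus PF-543 against DMSO, where 6.34% of all genes were called. MCM4 and PCNA were higher, and MCM7, CCNE2, RRM2, GINS1, CHAF1B, FEN1 and UHRF1 were lower. The same setting called MCM4 and PCNA with PF-543 (all genes 3.09%) and with enzalutamide plus ABC294640 (all genes 3.39%), and 0 of the 41 in the other 9 comparisons. All genes were called there at 1.5% with enzalutamide and 0.0452% with ABC294640 against DMSO, at 0.831% and 0.215% when enzalutamide was added to PF-543 and to ABC294640, at 0.995% averaged over both, and at 0.00565% to 0.266% in the rest. Its F test over the 6 groups called PCNA and FEN1, 2 of 41, and 4.19% of all genes. Leaving out any 1 of the 6 arrays, it called 3 to 5 of the 41 with enzalutamide plus PF-543, beside 3.43% to 5.14% of all genes, and PCNA was called each time.

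Genes of the same processes outside the 41 were counted in the same way. Of 42 further replication genes measured of 44 listed, limma called falls of POLE4, an accessory subunit of polymerase epsilon, by 0.54 (SE 0.11, adjusted p = 0.0266) and of the histone chaperone gene ASF1B by 0.41 (SE 0.09, adjusted p = 0.0461), both with enzalutamide plus PF-543 against DMSO. Of all genes, 2.02% were called there. In the other 11 comparisons limma called 0 of the 42, with 0 to 9 at an unadjusted p under 0.05. The 9 were with enzalutamide plus ABC294640 against DMSO, where 16% of all genes were under that threshold. ASF1B lost its call when any 1 of the 6 arrays was left out, and POLE4 kept it in 1 of 6. Of 12 S phase repair genes measured of 16 listed, limma called 0 in all 12 comparisons, with 0 to 4 at an unadjusted p under 0.05. The 4 were again with enzalutamide plus ABC294640 against DMSO, beside 16% of all genes.

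Among 27 further genes of G1/S control measured of 28 listed, limma called MYC and CDKN1A. Against DMSO it called 1 of 27 with enzalutamide, 1 with PF-543, 2 with enzalutamide plus PF-543 and 1 with enzalutamide plus ABC294640. The shares of all genes called were 0.311%, 0.565%, 2.02% and 0.701% in the same order. CDKN1A, which encodes the cyclin kinase inhibitor p21, measured 8.82, 8.24 and 8.56 with DMSO, 8.75 and 8.48 with enzalutamide, 9.22, 9.30 and 9.41 with PF-543, 8.71 with ABC294640, 9.37, 9.30 and 9.38 with enzalutamide plus PF-543, and 8.37, 8.41 and 8.66 with enzalutamide plus ABC294640. All 6 arrays with PF-543 lay above all 9 others. CDKN1A rose by 0.81 with enzalutamide plus PF-543 against DMSO (limma adjusted p = 0.0134) and by 0.77 with PF-543 against DMSO (limma adjusted p = 0.0321), and the first of these calls held with each of 6 arrays left out while the second held with 1 of 6. CDKN1A with enzalutamide plus PF-543 also rose by 0.87 against enzalutamide plus ABC294640 (limma adjusted p = 0.0358), where 0.0961% of all genes were called. That call was lost when any 1 of those 6 arrays was left out. PF-543 added to enzalutamide gave 0.73 (limma adjusted p = 0.202).

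MYC, a transcription factor gene that promotes entry into S phase, measured 13.99, 14.07 and 13.98 with DMSO, 14.60 and 14.59 with enzalutamide, 14.24, 14.32 and 14.20 with PF-543, 14.31 with ABC294640, 14.45, 14.33 and 14.34 with enzalutamide plus PF-543, and 14.54, 14.55 and 14.66 with enzalutamide plus ABC294640. Every treated array lay above the DMSO arrays. MYC rose against DMSO by 0.58 with enzalutamide (limma adjusted p = 0.0134), by 0.36 with enzalutamide plus PF-543 (limma adjusted p = 0.0384) and by 0.57 with enzalutamide plus ABC294640 (limma adjusted p = 0.00659). Without 1 array, the first of these calls held in 3 of 5 cases, the second in 0 of 6 and the third in 6 of 6. Of 30 G2/M genes, limma called the mitotic motor gene CENPE, which fell by 0.56 with enzalutamide plus PF-543 against DMSO (adjusted p = 0.0192) and kept the call without 1 array in 2 of 6 cases. Of all genes, 2.02% were called there. The median difference of the G2/M genes in that comparison was 0.0017. Against DMSO it was 0.11 with PF-543, 0.12 on the single ABC294640 array, 0.02 with enzalutamide plus ABC294640 and -0.04 with enzalutamide. The median of all genes was -0.01 in each of these comparisons.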

How the data were processed

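The 15 arrays were grouped by their labels. What the authors deposited is a log2 value for each probe set on each array, made with RMA and Transcriptome Analysis Console 4.02 per the submitters' processing notes. For the RMA variant, annotation version and genome build of the array, the sources used here give no statement. Because RMA brings the distributions of arrays close together, it would hide a shift common to most genes. The distributions still differed slightly. Array medians ran from 6.71 to 6.76, but the SD of an array's values was 3.29 to 3.31 with DMSO and 3.32 to 3.36 under treatment. The first quartile was 4.65 to 4.69 with DMSO and 4.57 to 4.63 under treatment. Under quantile normalization MCM4 lost its separation from DMSO and RRM2 gained one. The part of this difference in the other results against DMSO was not tested gene by gene. No scanner files or detection calls were used, so signal was not set against background.

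A single gene symbol was attached to 17709 of the 21448 probe sets, several to 0 and none here to 3739. The probe set with the highest mean was kept for 20 genes with several. limma 3.58.1 in R 4.3.3 fitted 1 mean per group to all 15 arrays (9 residual and 3.82 prior degrees of freedom). The fit gave 12 contrasts and 2 F tests, Benjamini-Hochberg adjusted over 17687 genes at a threshold of 0.05, and 95% intervals from the moderated degrees of freedom. The fitting was tested on simulated data. Promoter windows came from RefSeq, GRCh38.p14.

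Named genes were, in each contrast, the 3 largest positive and 3 largest negative differences, the brightest and dimmest genes, and E2F1, CCND1, CCNE1, CCNE2, CDC6, PCNA and MCM2. Genes called in other lists were added, and other genes were named after their values were seen. The 41 genes, the lists and the tests were chosen with earlier results of these data known. Some listed genes are not analysed here. Alternatives changed the normalization, probe set choice, dim-gene filter, prior, array weights and arrays fitted. Chosen after seeing the data were leaving out the DMSO arrays, the robust trended prior with arrays left out, the normalizations of the separation from DMSO, and 2 differences between effects of enzalutamide with ABC294640.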

Additional observations from a re-analysis of the deposited data

How the results depend on the processing

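The count of the 41 genes called was 0 in 231 of 236 pairings of a comparison or F test with an alternative. These pairings are not separate checks. Averaging probe sets could not change genes with 1 probe set each, and some comparisons called 0% of all genes. Fitting only the arrays of the contrast lowered the calls over all genes, from 358 to 31 for enzalutamide plus PF-543 against DMSO. The exceptions were the robust prior with a trend, with 2 genes for PF-543, 2 for enzalutamide plus ABC294640 and 9 for enzalutamide plus PF-543, each against DMSO, and 2 (PCNA and FEN1) for the F test over 6 groups. Leaving out the dimmest 25% of genes called GINS4 alone, 1 gene, with enzalutamide plus PF-543 against DMSO (limma adjusted p = 0.0459), beside 4.11% of the genes kept. Over all genes, that comparison called 358, and 31 to 1121 under the alternatives. Its number of the 41 at an unadjusted p under 0.05 was 13. Of 194 medians under alternatives, 4 moved by more than the spread between arrays. With 1 array left out, the median for PF-543 added to enzalutamide, -0.02, ran from -0.075 to -0.015, the first without replicate 1 of enzalutamide plus PF-543. The median difference between the effects of enzalutamide with and without PF-543, 0.02, ran from -0.03 to 0.043, below 0 without either enzalutamide array or PF-543 replicate 3. Of 1164 values of 72 single-gene differences under alternatives, 0 reversed and 8 passed the threshold. These 72 were the largest differences of the main fit, and the alternatives used much the same arrays. A reversal was therefore unlikely beforehand, and its absence does not measure stability.

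With the replicate number as a block, limma called 0 of the 41 in each of the comparisons it could be fitted to, and the median for enzalutamide plus PF-543 against DMSO was -0.13. The ABC294640 array has no number and could not be fitted. Same-numbered arrays did not deviate together (correlation -0.037 to 0.072 over 26 pairs), so the numbers were not taken to pair the samples. Signal over background could not be judged. The number of arrays, 1 to 3 a group, sets the width of the intervals.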
